A study of Mus musculus with 6 samples.

Results

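Voltage-gated sodium and calcium channels are membrane proteins that open when a cell depolarizes. Each is built around a large pore-forming α subunit that sets its current and carries auxiliary subunits that set its traffic and gating. Sodium channels drive the upstroke of the action potential in neurons, and calcium channels couple the action potential to transmitter release, firing pattern and gene expression. The genes described here are every gene of the deposited table whose symbol is that of a sodium channel pore (Scn1a to Scn11a) or β subunit (Scn, a number and the letter b), or of a calcium channel pore (Cacna1), α2δ (Cacna2d), β (Cacnb) or γ (Cacng) subunit. Symbols alone set which genes belong, though the family was chosen with earlier results of these data known. In all, 38 of the 16729 genes in the table met the rule. They comprise 8 sodium pores, 4 sodium β subunits, 10 calcium pores, 4 α2δ subunits, 4 calcium β subunits and 8 γ subunits. The mouse annotation holds 40 such genes, and Scn4a and Scn10a were not analysed here.

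RNA-seq was performed on tumors formed in the brain by mG7080 cells, a gliomasphere line derived from mice with engineered mutations, those of p53 and Nf1 among them. The hosts were C57BL/6 mice, either Esm1 wild-type (WT) or Esm1 knockout (KO). Esm1 encodes Endocan, a proteoglycan secreted by vascular endothelial cells, and the comparison asks how tumors differ when the host cannot supply it. The tumor line was the same in both groups, so only the host differed by genotype, and each group had 3 tumors, 1 library per tumor. Hosts were young adults at injection, and tumors were resected once they had formed rather than at 1 fixed time. Each library is bulk RNA from resected tissue and can hold tumor cells, vessels and brain. In such samples a difference in the number of neurons and a difference in channel RNA per neuron cannot be told apart.

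Library totals were 17632070 to 22241832 reads. Esm1 itself had 25, 21 and 82 reads in WT 1, WT 2 and WT 3, and 1, 24 and 4 reads in KO 1, KO 2 and KO 3. On the CPM scale, counts are divided by the library total after scaling it by edgeR's TMM factor. The library labelled KO 2 had 1.06, close to 1.18 in WT 1 and 1.11 in WT 2. Its Esm1 level was thus like that of WT libraries, although its label gives a KO host. Whether these reads came from host or tumor cells was not tested. The first principal component, with 84.5% of the variance over all genes tested, also placed it (-34.9) among the WT libraries (-88.0 to -18.8) and apart from KO 1 and KO 3 (88.6 and 122). The main tests and fold changes are therefore given with all 6 libraries as labelled and again without the library labelled KO 2 (the 5-library fit). That library was singled out through these same expression values, so leaving it out favours separation of the groups. Every adjusted p of the 5-library fit is to be read with this limit.

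Of the 38 genes, 28 had at least 1 promoter window (250 bases before to 50 after the transcription start) in the RefSeq table for GRCm38.p6, 39 windows in all. The windows below belong to 3 brain sodium pores whose levels varied together across the libraries and to Cacng8, a γ family member with a like pattern. They are shown as examples, since most members had a like pattern. A link between sequence and level was not tested. They are printed in lower case with every CG dinucleotide in capitals.
Scn1a, minus strand, chr2:66440788-66441087: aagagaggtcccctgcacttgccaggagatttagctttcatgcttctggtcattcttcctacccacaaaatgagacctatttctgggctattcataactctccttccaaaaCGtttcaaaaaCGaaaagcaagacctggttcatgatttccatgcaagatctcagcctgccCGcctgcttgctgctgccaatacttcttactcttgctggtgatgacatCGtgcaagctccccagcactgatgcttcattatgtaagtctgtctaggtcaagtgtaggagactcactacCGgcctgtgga
Scn2a, plus strand, the downstream of its 2 starts, chr2:65668436-65668735: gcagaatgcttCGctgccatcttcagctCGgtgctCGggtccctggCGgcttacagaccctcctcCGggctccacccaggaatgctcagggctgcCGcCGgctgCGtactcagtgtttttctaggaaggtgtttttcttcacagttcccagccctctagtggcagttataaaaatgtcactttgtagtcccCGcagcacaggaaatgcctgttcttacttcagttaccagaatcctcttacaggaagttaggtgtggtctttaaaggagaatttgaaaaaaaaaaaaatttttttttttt
Scn8a, plus strand, the upstream of its 2 starts, chr15:100870395-100870694: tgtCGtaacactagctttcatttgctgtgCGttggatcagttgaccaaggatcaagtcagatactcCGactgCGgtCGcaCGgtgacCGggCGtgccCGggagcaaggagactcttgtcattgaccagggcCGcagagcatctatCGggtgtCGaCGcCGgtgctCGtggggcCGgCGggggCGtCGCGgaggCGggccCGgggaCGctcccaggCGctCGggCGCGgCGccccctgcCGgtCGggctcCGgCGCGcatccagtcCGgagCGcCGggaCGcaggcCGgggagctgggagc
Cacng8, plus strand, chr7:3393792-3394091: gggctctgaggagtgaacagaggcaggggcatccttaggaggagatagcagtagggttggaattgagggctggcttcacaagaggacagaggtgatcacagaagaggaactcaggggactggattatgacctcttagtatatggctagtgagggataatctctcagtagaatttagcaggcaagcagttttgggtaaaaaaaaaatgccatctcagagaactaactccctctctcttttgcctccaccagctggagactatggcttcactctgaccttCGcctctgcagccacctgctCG

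The Scn1a window held 5 CG dinucleotides, the Scn2a window 9, the Scn8a window 38 and the Cacng8 window 2. Across the 39 windows the number ran from 2 to 63 with a median of 9.0, beside a median of 7.0 over all 32851 windows in the table. Letters of the left and right arms of the element bound by the repressor REST, which silences neuronal genes outside neurons, were searched on both strands. CAGCACC was in 0 of the 39 windows and in 7.14% of all windows, and GGACAG was in 7 of 39 and in 22.2% of all. TATAAA was in 2 (Cacna1d and Scn2a) and in 13.6% of all, and GGGCGG was in 16 and in 35.7% of all. Each motif was searched on its own, so matches of different motifs may overlap. Only exact short strings close to the start were searched, which cannot show whether a member has or lacks a REST element. Members without a window, among them Cacna1a and Cacng4, were not searched.

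The channel genes ranged widely in level. On the authors' FPKM scale, which divides by gene length and so allows genes to be compared, Cacng7 had a mean of 90.3 over the 6 libraries and was among the highest. After it came Cacnb3 (calcium β3) at 57.6, Cacng4 at 46.7 and Scn2b at 40.6. Among the pores, Scn2a1, the file's symbol for Scn2a, and Scn8a ranked 9th and 12th of 38, and the first calcium pore, Cacna1a, ranked 16th. The lowest were the retinal pore Cacna1f and Scn11a, a pore of sensory neurons. Spread between libraries was large. For Cacnb3, FPKM was 47.1, 20.1 and 35.0 in WT 1 to WT 3 and 89.7, 51.6 and 102 in KO 1 to KO 3, so that neighbours in the order of means often lay within each other's range.

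A common order of libraries ran through most of the members. Genes with enough counts for the test (edgeR's filter on low counts) numbered 35 of 38 with all 6 libraries, the exceptions being Scn11a, Cacng1 and Cacng6. Of these 35, 26 had their lowest CPM in WT 2, 33 had their highest WT value in WT 1, and 32 had their highest value of all in KO 1 or KO 3. For 28 of them the level in the library labelled KO 2 fell inside the span of the WT libraries, for 7 it was above and for 0 below. The plot of each member's level by library shows this order.

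**Figure D1:**
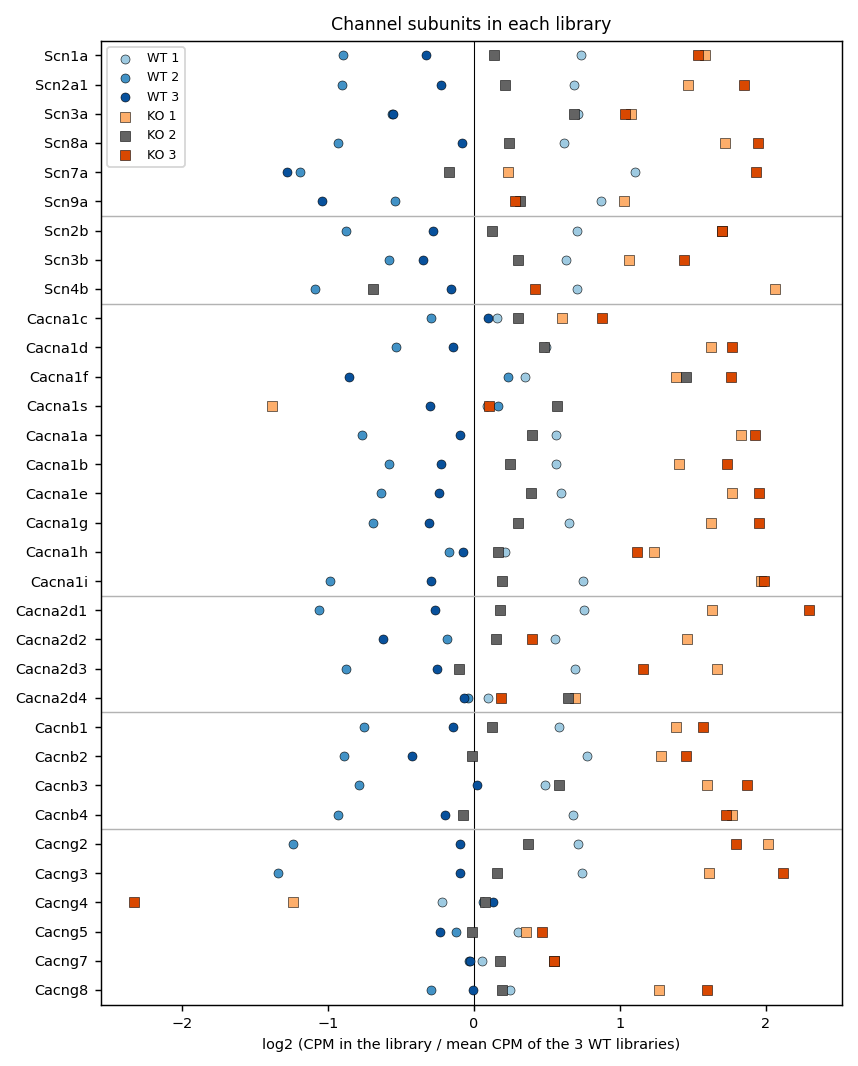
Level of 33 tested channel subunits in each library, as log2 of its CPM over the mean CPM of the 3 WT libraries (x axis), with genes on the y axis in 6 classes separated by lines. Circles are WT and squares KO libraries, and some points cover others. KO 1 and KO 3 lie to the right of the WT libraries for 27 of the 33 genes, whereas Cacng4 lies to the left.

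With all 6 libraries, 0 of 35 members passed an adjusted p of 0.05 in edgeR's quasi-likelihood test in either direction (0% of all 16166 genes tested in each), and the smallest adjusted p among them was 0.184. At an unadjusted p under 0.05, 16 members were higher in KO and 0 lower, which is 45.7% of members beside a background of 15.2% of all genes in the higher direction and 11.9% in the lower. edgeR's exact test also called 0 members (0.408% of all genes higher and 0.241% lower), as did limma-voom (0%). DESeq2 called 5 higher (Cacna1e, Cacnb3, Cacna1a, Cacna1d and Cacna1f) and 0 lower, with 4.68% of all genes called higher and 2.63% lower. The median log2 fold change of the members (KO over WT) was 1.15, beside -0.02 over all genes, and 32 of 35 had a positive value.

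In the 5-library fit, 24 of 36 members were called higher in KO and 1, Cacng4, lower at an adjusted p under 0.05. This is 66.7% of members called higher, beside 24.5% of all 16279 genes called higher and 28.3% called lower. The members' median log2 fold change was 1.48. The count rests on which libraries remain. With WT 3 also left out, which leaves WT 1, WT 2, KO 1 and KO 3, the libraries in the study's own table of results, 3 members were called higher (Cacna1h, Cacna1d and Cacng8) and 0 lower, beside 2.87% and 13.9% of all genes. With KO 1 left out in place of WT 3, 2 were called higher and 2 lower, beside 1.9% and 9.4% of all genes. With KO 3 left out in its place, 0 were called, as were 0% of all genes.

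**Figure D2:**
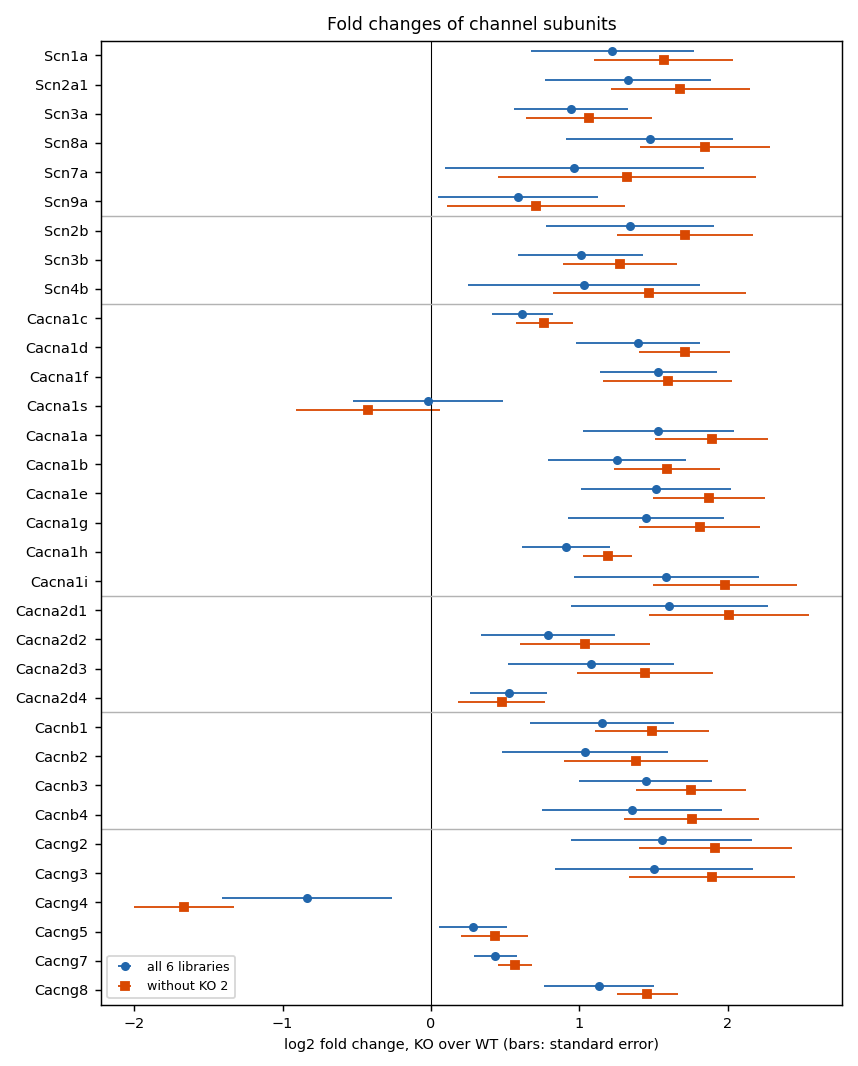
Log2 fold change of 33 tested channel subunits, KO over WT (x axis), for all 6 libraries (circles) and without the library labelled KO 2 (squares). Bars are a standard error derived from the F statistic of edgeR's quasi-likelihood test. Values lie between -0.84 (Cacng4) and 1.61 (Cacna2d1) with all 6 and between -1.66 and 2.01 without it.

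All 3 KO libraries lay above all 3 WT libraries for 5 members, Cacnb3, Cacna1c, Cacng7, Cacna2d4 and Cacna1f, and below for 0. The background was 12.6% of all genes above and 14.8% below, against 14.3% of members above. Without the library labelled KO 2, 28 of 36 members lay above and 2 (among them Cacng4) below, beside 37.2% and 40.3% of all genes.

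The sodium pores of the brain carry the action potential. Scn1a, the Nav1.1 pore prominent in inhibitory interneurons, was at 109, 35.2 and 52.3 CPM in WT 1, WT 2 and WT 3, and at 196, 72.0 and 190 CPM in KO 1, KO 2 and KO 3. The groups overlapped through the library labelled KO 2 (log2 fold change 1.22 ± 0.55 SE, adjusted p = 0.191) and were apart without it (1.57 ± 0.47, adjusted p = 0.035). Scn2a1, the Nav1.2 pore of excitatory neurons, was at 237, 78.7 and 126 CPM in WT and 407, 171 and 532 CPM in KO, again with the library labelled KO 2 inside the WT range. Its log2 fold change was 1.33 ± 0.56 (adjusted p = 0.185), and 1.68 ± 0.47 (adjusted p = 0.029) in the 5-library fit. Scn8a, the Nav1.6 pore concentrated at axon initial segments and nodes of Ranvier, had the largest fold change of the sodium pores. It was at 208, 71.2 and 128 CPM in WT and 447, 160 and 522 CPM in KO, with a log2 fold change of 1.47 ± 0.56 (adjusted p = 0.184), and 1.85 ± 0.44 (adjusted p = 0.020) in the 5-library fit.

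Scn3a, the Nav1.3 pore known for its high level in the embryonic brain, was at 62.5, 25.8 and 26 CPM in WT and 80.4, 61.1 and 77.9 CPM in KO. Its log2 fold change was 0.94 ± 0.39 (adjusted p = 0.184), and it did not pass in the 5-library fit either (1.07 ± 0.42, adjusted p = 0.076). Scn7a (0.96, and 1.32 in the 5-library fit) and Scn9a (0.58 and 0.71) had positive values that did not pass in either fit, and Scn11a had at most 0.66 CPM in any library.

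Several sodium pores sit side by side. Scn3a, Scn2a, Scn1a, Scn9a and Scn7a lie on chromosome 2 within 1328 kb (chr2:65457118-66784914, GRCm38), and their log2 fold changes with all 6 libraries ran from 0.58 to 1.33. Scn1a overlaps a transcript model on the other strand in the GENCODE annotation, as do Scn3a, Scn9a and other members, and whether reads were counted by strand was not given in the sources used here.

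Sodium β subunits are single-pass membrane proteins that bind the pores and adhesion molecules. Scn2b, the β2 subunit that is disulfide-linked to the pore, was at 179, 60.0 and 90.7 CPM in WT and 358, 120 and 358 CPM in KO (1.34 ± 0.57, adjusted p = 0.186). Without the library labelled KO 2 it passed (1.71 ± 0.46, adjusted p = 0.026). Scn3b had 86.1, 37.2 and 43.8 CPM in WT and 116, 68.8 and 151 CPM in KO (1.01 ± 0.42, adjusted p = 0.185), and passed in the 5-library fit (1.27 ± 0.39, adjusted p = 0.037).

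Scn4b, the β4 subunit known from striatum and Purkinje cells, differed widely between the KO tumors. It was at 183, 52.7 and 101 CPM in WT and 469, 69.4 and 150 CPM in KO. KO 1 was far above every other library while KO 3 was no higher than WT 1. The fit gave 1.03 ± 0.78 (adjusted p = 0.347) with all 6, 1.47 ± 0.65 (adjusted p = 0.10) in the 5-library fit, and -0.03 with KO 1 left out of the 6. Scn2b and Scn4b are neighbours on chromosome 9 (chr9:45117782-45154152, 36 kb). The summed CPM of 6 inhibitory neuron markers was also higher in KO 1 (1308) than in KO 3 (1032), and that of 5 excitatory markers was lower (4877 and 6386), and their part in the Scn4b values was not tested.

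The calcium pores of the presynaptic terminal had the same order of libraries. Cacna1e, the R-type pore, was the calcium pore with the most reads, at 169, 72.1 and 94.7 CPM in WT and 380, 147 and 433 CPM in KO (log2 fold change 1.52 ± 0.50, adjusted p = 0.184). In the 5-library fit it passed (1.87 ± 0.38, adjusted p = 0.014). Cacna1a, the P/Q-type pore that triggers transmitter release, was at 103, 41.1 and 65.2 CPM in WT and 248, 91.9 and 265 CPM in KO, and gave 1.53 ± 0.51 (adjusted p = 0.184) and 1.89 ± 0.38 (adjusted p = 0.014). Cacna1b, the N-type pore, was at 101, 45.8 and 58.6 CPM in WT and 182, 81.3 and 228 CPM in KO, and gave 1.25 ± 0.46 (adjusted p = 0.184) and 1.59 ± 0.36 (adjusted p = 0.018). In all 3, the library labelled KO 2 lay between WT 3 and WT 1.

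The T-type pores, which open at low voltage and support burst firing, had a like pattern. Cacna1i (Cav3.3) had the largest fold change of the calcium pores with all 6 libraries. It was at 71.4, 21.5 and 34.7 CPM in WT and 166, 48.5 and 168 CPM in KO, with log2 fold changes of 1.58 ± 0.62 (adjusted p = 0.184) and 1.98 ± 0.48 (adjusted p = 0.021). Cacna1g (1.45 and 1.81) and Cacna1h (0.91 and 1.19) also passed in the 5-library fit only, and Cacna1h then had the smallest adjusted p of the members, 0.0080. WT libraries differed little for Cacna1h, 56.0, 42.8 and 45.9 CPM, against 113 in KO 1 and 105 in KO 3, and 54.1 in the library labelled KO 2.

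Among the L-type pores, Cacna1c, the Cav1.2 pore of neurons, heart and smooth muscle, had a smaller fold change than the presynaptic pores. It was at 82.0, 59.7 and 78.4 CPM in WT and 112, 90.6 and 135 CPM in KO, so all KO libraries lay above all WT libraries. The fit gave 0.61 ± 0.20 (adjusted p = 0.184) with all 6 and 0.76 ± 0.19 (adjusted p = 0.023) in the 5-library fit. Cacna1d (Cav1.3) gave 1.39 and 1.71, and passed in the 5-library fit. The skeletal muscle pore Cacna1s was near 2 CPM with overlapping groups, 2.21, 2.33 and 1.69 in WT and 0.80, 3.09 and 2.23 in KO, and a log2 fold change of -0.02 ± 0.51 (adjusted p = 0.979). The retinal pore Cacna1f passed in the 5-library fit (1.59, adjusted p = 0.027) from levels of at most 2.13 CPM.

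The α2δ subunits are extracellular proteins that bring calcium pores to the surface, and α2δ-1 and α2δ-2 bind gabapentin. Cacna2d1 was at 137, 38.9 and 67.5 CPM in WT and 251, 92.1 and 398 CPM in KO. It gave log2 fold changes of 1.61 ± 0.66 (adjusted p = 0.184) and 2.01 ± 0.54 (adjusted p = 0.026), with KO 3 the highest. Cacna2d3 was at 71.7, 24.3 and 37.4 CPM in WT and 141, 41.5 and 99 CPM in KO, with 1.08 ± 0.56 (adjusted p = 0.219) and 1.44 ± 0.46 (adjusted p = 0.042).

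In Cacna2d2, KO 3 was within the WT range. Its CPM was 65.3, 39.1 and 28.8 in WT and 122, 49.3 and 58.5 in KO, and neither fit passed (0.79 ± 0.45, adjusted p = 0.247, and 1.04 ± 0.44, adjusted p = 0.091). Cacna2d4, known from retina, was near 2 to 4 CPM, at 2.45, 2.22 and 2.18 in WT and 3.69, 3.57 and 2.60 in KO. The groups did not overlap, but neither fit passed (0.52 ± 0.26, adjusted p = 0.207, and 0.47 ± 0.29, adjusted p = 0.208).

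Calcium β subunits are cytosolic proteins that hold the pores at the membrane. Cacnb4 had the most reads, 174, 56.9 and 94.3 CPM in WT and 369, 103 and 358 CPM in KO, with log2 fold changes of 1.35 ± 0.61 (adjusted p = 0.190) and 1.76 ± 0.46 (adjusted p = 0.024). Cacnb3 was at 117, 48.1 and 84.5 CPM in WT and 252, 124 and 303 CPM in KO. In this gene the library labelled KO 2 was also above all WT libraries (1.45 ± 0.45, adjusted p = 0.184, and 1.75 ± 0.37, adjusted p = 0.016). Cacnb1, better known from skeletal muscle, was at 89.1, 35.2 and 53.8 CPM in WT and 155, 64.8 and 176 CPM in KO, and passed in the 5-library fit (1.49 ± 0.38, adjusted p = 0.024). Cacnb2, the main β subunit of the heart, was at 35.5, 11.2 and 15.4 CPM in WT and 50.5, 20.5 and 56.7 CPM in KO and did not pass (1.04 ± 0.56, adjusted p = 0.228, and 1.38 ± 0.49, adjusted p = 0.055).

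The γ family divided. Cacng1 and Cacng6, the γ subunits of the muscle type, were below 1 CPM in every library. The other 6 are transmembrane AMPA receptor regulatory proteins (TARPs), which bind glutamate receptors and take their name from the family rather than from calcium channels. Cacng2 (stargazin) had the largest fold change of these, at 38.6, 9.99 and 22.1 CPM in WT and 95.3, 30.5 and 81.6 CPM in KO, with log2 fold changes of 1.55 ± 0.61 (adjusted p = 0.184) and 1.92 ± 0.52 (adjusted p = 0.027). Cacng3 (1.5 and 1.89) and Cacng8 (1.13 and 1.46) passed in the 5-library fit as well. Cacng7 had the most reads of the family and the smallest spread, at 66.9, 62.9 and 63.0 CPM in WT and 93.9, 72.7 and 93.8 CPM in KO. All of its KO libraries lay above all WT libraries, with log2 fold changes of 0.43 ± 0.15 (adjusted p = 0.184) and 0.56 ± 0.12 (adjusted p = 0.015).

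Cacng4 was the only member called lower in KO in the 5-library fit. It was at 48.8, 59.1 and 62.2 CPM in WT 1, WT 2 and WT 3 and at 24.0, 59.9 and 11.3 CPM in KO 1, KO 2 and KO 3. KO 1 and KO 3 were below every WT library, and the library labelled KO 2 was inside the WT range. The log2 fold change was -1.66 ± 0.34 (adjusted p = 0.014) without that library and -0.84 ± 0.57 (adjusted p = 0.308) with it. Its neighbour Cacng5, which with Cacng1 lies beside it on chromosome 11 (chr11:107703218-107915055), was at 10.9 to 17.7 CPM and did not pass in either fit (0.28 and 0.43). Markers of oligodendrocyte precursors, among them Pdgfra and Olig2, which the paper uses as proneural markers in these tumors, moved with Cacng4. The summed CPM of 6 markers was 1544 to 1796 in WT and 541 and 341 in KO 1 and KO 3. In the library labelled KO 2 it was 2241. In the 5-library fit 5 of the 6 were called lower, the exception being Sox10, beside 28.3% of all genes. The 8 proliferation markers summed to 1045 to 1972 CPM in WT, 95.3 and 12.3 in KO 1 and KO 3, and 1156 in the library labelled KO 2. The part of either in the Cacng4 values was not tested.

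Summed over a class, 3 classes of auxiliary subunits and both pore classes kept nearly the same order of libraries. Sodium pores summed to 657, 235 and 355 CPM in WT and 1165, 497 and 1351 CPM in KO, a difference of 1.28 in mean log2 sum (1.73 without the library labelled KO 2). Calcium pores summed to 688, 330 and 437 CPM in WT and 1413, 606 and 1588 CPM in KO (1.26 and 1.69).

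In both pore classes the groups overlapped only through the library labelled KO 2, which lay below WT 1. Sums of α2δ subunits were 277, 104 and 136 CPM in WT and 518, 187 and 558 CPM in KO (1.26 and 1.77), and those of calcium β subunits were 415, 151 and 248 CPM in WT and 826, 313 and 895 CPM in KO (1.30 and 1.78). The γ family differed least, at 255, 182 and 217 CPM in WT and 393, 244 and 424 CPM in KO (0.67 and 0.92). Medians of the log2 fold changes per class with all 6 libraries were 0.96 for sodium pores, 1.42 for calcium pores, 0.93 for α2δ, 1.25 for calcium β and 0.78 for γ, beside -0.02 over all genes. In the 5-library fit they were 1.32, 1.65, 1.24, 1.62 and 0.83 in the same order.

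The 24 members called higher in the 5-library fit included 3 of 7 tested sodium pores, 9 of 10 calcium pores, 2 of 4 α2δ subunits, 3 of 4 calcium β subunits and 4 of 7 γ subunits. The same caution holds for each of these counts, since they fell to 3 in all once WT 3 was also left out.

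Neuronal marker genes moved with the channels. The summed CPM of 13 neuron markers was 6709, 2826 and 4270 in WT and 14258, 5885 and 17130 in KO, so its order of libraries was that of most channel genes. In the 5-library fit 12 of the 13 were called higher, the exception being Gad2, beside 24.5% of all genes. The median log2 fold change of the 13 was 1.5 with all 6 libraries and 1.84 in that fit. Relative to this sum, the sodium pores, calcium pores, calcium β and α2δ subunits varied far less. Sodium pores came to 7.89 to 9.79% of it over the 6 libraries, calcium pores to 9.27 to 11.7%, calcium β to 5.22 to 6.19% and α2δ to 3.17 to 4.13%. The differences between KO and WT in mean log2 ratio were between -0.12 and -0.09 for these 4 classes, whereas that of the γ family was -0.71. Without the library labelled KO 2 they were between -0.16 and -0.07, and -0.94. The TARPs of the γ family did not move alike with all 6 libraries. Cacng4 was at -2.54, Cacng5 at -1.09, Cacng7 at -0.96 and Cacng8 at -0.35, whereas Cacng2 (0.22) and Cacng3 (0.14) were positive. The calcium β difference turned to 0.0040 when Camk2a, the marker with the highest level, was left out.

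**Figure D3:**
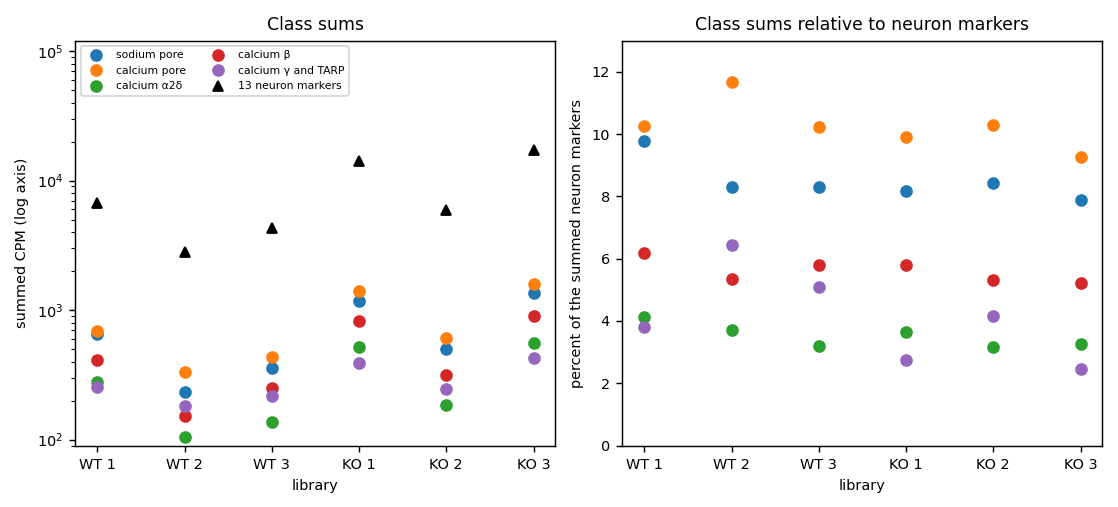
Summed CPM of 5 channel classes and of 13 neuron markers in each library (left, log axis), and each class as a percent of the neuron marker sum (right). The sums are highest in KO 1 and KO 3 and lowest in WT 2, while the percents stay within 7.89 to 9.79 for sodium pores and fall to 2.76 and 2.47 in KO 1 and KO 3 for the γ family, from 3.80 to 6.44 in WT.

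Member by member, the ratio of the highest to the lowest library had a median of 5.57 in CPM over the 35 genes and of 1.81 after division by the neuron marker sum. The range narrowed for 28 of the 35. For 12 members, Scn1a, Scn2a1, Scn8a, Scn2b, Cacna1a, Cacna1b, Cacna1d, Cacna1e, Cacna1g, Cacnb1, Cacnb3 and Cacnb4, the highest library was less than 1.5 times the lowest after this division, although their CPM differed by 4.93 to 7.34 times. Cacna1a was the steadiest, at 14.5 to 15.3 per 1000 marker CPM in WT and 15.5 to 17.4 in KO. At the other end, 7 members differed by more than 4 times after division, among them Cacna1s, Cacna2d2, Cacna2d4, Cacng4, Cacng5 and Cacng7. Cacng4 was the extreme, from 0.66 in KO 3 to 20.9 in WT 2 per 1000 marker CPM. Cacna1c and Cacng7, which rose least among the members called, were both at less per 1000 marker CPM in KO 1 and KO 3 than in any WT library. The neuron markers and the channels come from the same libraries, and the part of neuronal RNA in the channel values was not tested.

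**Figure D4:**
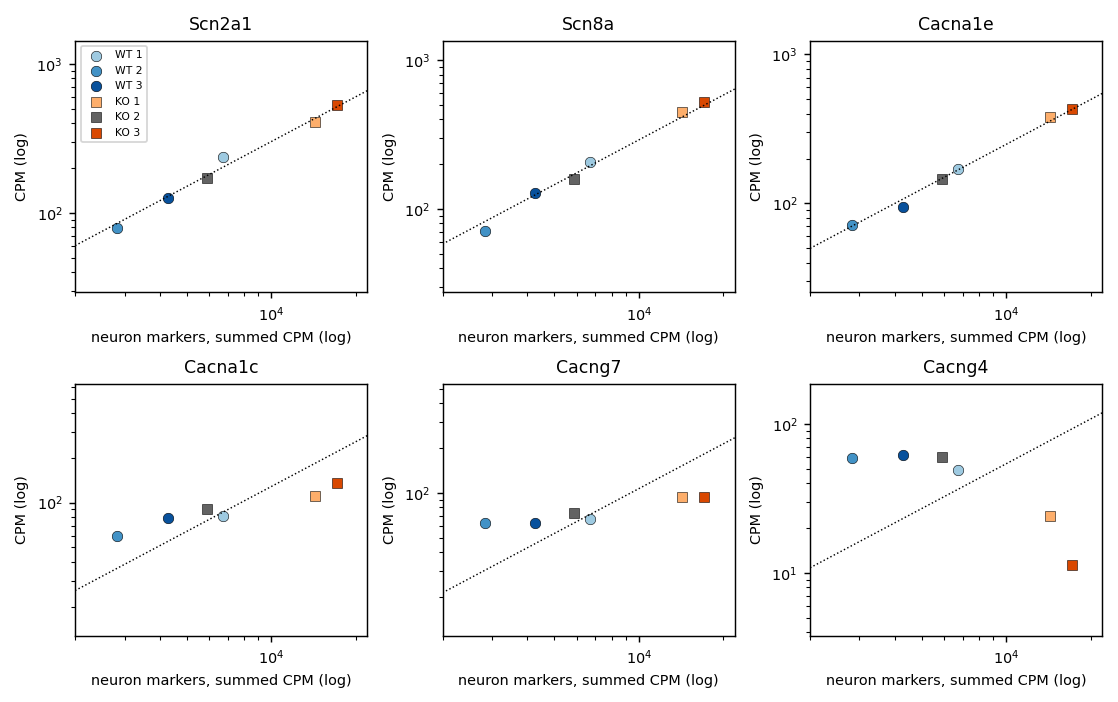
CPM of 6 channel genes (y axis, log) against the summed CPM of 13 neuron markers (x axis, log), 1 point per library, with a dotted line of constant ratio at the geometric mean of the 6 libraries. Scn2a1, Scn8a and Cacna1e follow the line, Cacna1c and Cacng7 are flatter, and Cacng4 runs the other way.

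The mix of subunits within a class was compared on the FPKM scale. Among the 4 brain sodium pores, Scn2a1 held 40.7 to 41.8% of the summed FPKM in WT and 39.6 to 44.3% in KO. Scn8a held 28, 28.2 and 32.4% in WT and 33.3, 28.9 and 33.3% in KO, and Scn3a held 7.80 to 12.1% in WT and 7.11, 13.1 and 5.89% in KO. KO 1 and KO 3 were thus above all WT libraries for Scn8a and below for Scn3a, and the library labelled KO 2 removed both separations.

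For the calcium pores, Cacna1a held 18.9, 15.9 and 19.0% in WT and 22.0, 19.2 and 21.0% in KO, above WT in all 3 KO libraries (exact permutation test, two-sided p = 0.1, the smallest that 3 against 3 allows, unadjusted over 32 shares). Cacna1c held 8.74, 13.4 and 13.3% in WT and 5.74, 11 and 6.18% in KO. Cacnb1 held 25.6, 26.5 and 24.6% of the calcium β FPKM in WT and 22.5, 22.3 and 22.7% in KO, with the same exact p of 0.1. Cacna1a, Cacna1d and Cacnb1 were the only shares without overlap between the groups. After Benjamini-Hochberg adjustment of the permutation tests over the 32 shares, each had an adjusted p of 0.46.

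Among the α2δ subunits, Cacna2d1 held 27.2 to 36.9% in WT, 35.8% in KO 1 and 58.7% in KO 3, so KO 1 and KO 3 differed from each other. The widest difference was in the TARPs, where Cacng4 held 24.0, 35.5 and 33.2% in WT, 8.50 and 3.74% in KO 1 and KO 3, and 29.0% in the library labelled KO 2. Cacng3 and Cacng8 held more, at 4.20 to 14.6% and 11.4 to 13.7% in WT and 19.1 to 25.4% and 19.9 to 23.3% in KO 1 and KO 3. The library labelled KO 2 was inside both WT ranges, at 9.56% and 12.9%. Of the ratios between classes, summed calcium β over calcium pore FPKM was 1.47, 1.18 and 1.47 in WT and 1.40, 1.40 and 1.42 in KO. Summed α2δ over calcium pore FPKM was 0.72, 0.58 and 0.56 in WT and 0.65, 0.54 and 0.56 in KO. Brain sodium over calcium pore FPKM was 0.94, 0.67 and 0.79 in WT and 0.82, 0.80 and 0.85 in KO. The groups overlapped in all 3 ratios.

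**Figure D5:**
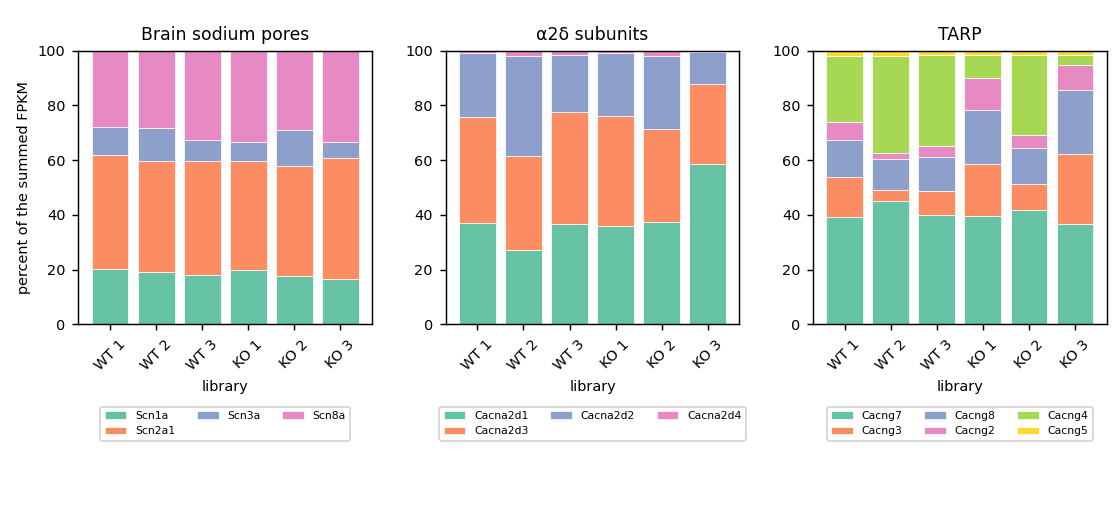
Share of each member in the summed FPKM of its class (y axis, percent) in each library, for 4 brain sodium pores, α2δ subunits and TARPs. Scn2a1 holds 39.6 to 44.3% of the sodium pores in every library, Cacna2d1 is larger in KO 3 (58.7%) than in KO 1 (35.8%), and the Cacng4 share is 8.50 and 3.74% in KO 1 and KO 3 against 24.0 to 35.5% in WT.

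Genes that work with these channels were read beside them. All 10 sodium channel partners (fibroblast growth factor homologous factors, ankyrins, spectrin, neurofascin, Nrcam and the ubiquitin ligase Nedd4l) had positive values with all 6 libraries, with 0 called and a median log2 fold change of 1.14. All 10 were called higher in the 5-library fit (median 1.43), beside 24.5% of all genes. The lowest was Ank2 (0.80 with all 6, at 275 to 399 CPM in WT and 629, 338 and 770 CPM in KO), and the highest was Fgf13 (1.56, at 18.9 to 67.3 CPM in WT and 130, 57.9 and 172 CPM in KO). The leak channel Nalcn and its partners, 4 of the 5 listed, were each called higher in the 5-library fit, from Unc79 (0.67 with all 6 and 0.91) to Fam155a (1.61 and 1.97).

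Calcium channel partners were mixed, with 8 positive and 4 negative values of 12 and a median of 0.62 (0.74 in the 5-library fit). In the 5-library fit 5 were called higher and 2 lower (Rrad and Cachd1), beside 24.5% and 28.3% of all genes. Among the 5 was the active zone protein Rims1 with the largest value (1.72 with all 6 and 2.08, adjusted p = 0.020, at 25.4 to 90.2 CPM in WT and 219, 80.5 and 243 CPM in KO). Rem1, a small GTPase that restrains calcium channels, had the lowest value with all 6 (-0.85, adjusted p = 0.307) from under 1 CPM.

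REST and 7 genes of its corepressor complexes had a median log2 fold change of -0.46 with all 6 libraries and 0 calls. In the 5-library fit the median was -0.67 and 7 of the 8 were called lower, beside 28.3% of all genes. Rest itself was at 12.4, 19.5 and 17.7 CPM in WT and 5.68, 15.2 and 4.41 CPM in KO (-0.97, adjusted p = 0.219, and -1.69, adjusted p = 0.0097). Rcor3 was the highest of the list at 0.15, a value that turned negative with plain library size scaling. Whether lower Rest has a part in the channel values was not tested.

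Markers of other cell types did not all move alike. Oligodendrocyte markers had a median log2 fold change of 1.05 with all 6 libraries and 1.23 in the 5-library fit. In that fit 2 of 8 were called higher, beside 24.5% of all genes called higher and 28.3% called lower. These shares of all genes apply to the counts below as well. Astrocyte markers had 0.35 and 0.44, with 3 of 6 called higher and Gfap lower in the 5-library fit. Medians of inhibitory neuron markers were 1.21 and 1.54, and those of excitatory neuron markers 1.68 and 2.00. Of the 5 excitatory markers 4 were positive in both fits, while Slc17a6 was at -0.11 and -0.19. The median of the microglia and macrophage markers changed sign, from 0.07 with all 6 libraries to -0.13 in the 5-library fit (1 of 7 called higher and 3 lower), and was -0.06 with plain library size over all 6. Endothelial markers had medians of -0.11 and -0.26, with 2 of 7 called higher and 0 lower in the 5-library fit. Skeletal muscle markers, 5 of the 7 listed, had medians of 0.67 and 0.65. With all 6 libraries 3 were positive and 2 negative, from -2.31 (Ttn) to 1.41 (Acta1). Their summed CPM went the other way from the medians, at 21.6 to 28.5 in WT and 10.4 to 17.3 in KO, and Ckm stayed at or below 1.25 CPM.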

How the data were processed

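RNA-seq of mG7080 tumors from 3 WT and 3 KO hosts was analysed, with groups taken from the sample titles. The authors deposited raw read counts per gene and library, made by counting uniquely mapped reads on RefSeq genes with HTSeq, and FPKM that they computed from those counts and gene length. The labels name mm10, CASAVA 1.8.2 and edgeR, the paper's methods name a human build, and the chromosomes and accessions in the table are mouse. Genes with few reads are not in the table. Its columns of fold changes, p-values and scaled counts hold the authors' own comparison and were not used. FPKM served for levels between genes and for shares within a class.

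For the test, edgeR 4.0.16 was run in R 4.3.3 on the raw counts (filterByExpr, minimum count 10 and minimum total 15, TMM factors, quasi-likelihood F test, Benjamini-Hochberg over all genes tested), and a gene was called at an adjusted p under 0.05. The standard error (SE) was derived as the absolute log2 fold change divided by the square root of the F statistic. CPM used TMM-scaled totals. A count of 0 allows up to 3 reads, 0.13 to 0.17 CPM per library, and this covers counting error only. Replicates were tumors of separate mice. Alternatives were other scalings (plain library size, RLE, upper quartile), no filter or a mean of 10 counts, DESeq2 1.42.0, edgeR's exact test, limma-voom (limma 3.58.1), the replicate number as a block, the 4 libraries of the study's table and each library left out. Fits that drop the library labelled KO 2 together with another setting were added after seeing the data. The pipeline was tested on simulated counts.

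The members and the gene lists were chosen with earlier results of these data known. Values are given for Esm1, for Scn1a, Scn2a, Scn3a, Scn8a, Cacna1a, Cacna1b and Cacna1c, for the member of each class with the highest CPM, the largest and the smallest fold change, for all members of classes of 4, and for the lowest and highest partner gene. Other members were named after their values were seen. Values of 2 members, and the sums and shares that rest on them, are not reported here, while counts and medians over all members hold both. Positions are GRCm38 (GENCODE vM21). Figures used Python 3.11.15 and matplotlib 3.10.9.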

Additional observations from a re-analysis of the deposited data

How the results depend on the processing

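The count of channel genes called depends on the libraries. It was 0 higher and 0 lower with all 6, and with 1 library left out it ranged from 0 to 24 higher and 0 to 1 lower, the upper value being that without the library labelled KO 2. With the 4 libraries that the study's results list uses, the calls were 3 higher, or 4 higher and 1 lower with plain library size (2.44% and 22.3% of all genes). DESeq2 over all 6 called 5 higher. Without the library labelled KO 2, the counts higher, beside the share of all genes called higher, were 20 and 15.5% (plain library size), 25 and 26.2% (RLE), 24 and 23.8% (upper quartile), 26 and 26.0% (limma-voom), 28 and 26.5% (edgeR's exact test) and 28 and 28.2% (DESeq2). Each setting called 1 lower, beside 26.9 to 36.9% of all genes. Without it and WT 1 the counts were 31 higher and 1 lower, beside 32.1% and 34.2% of all genes. Without it and WT 2 they were 21 and 1, beside 15.2% and 21.5%. Without it and WT 3 they were 3 and 0, beside 2.87% and 13.9%. Of the 25 called without the library labelled KO 2, 25 were also called with WT 1 dropped, 22 with WT 2 and 3 with WT 3. Dropping KO 1 or KO 3 as well leaves 1 KO library, and the members' median log2 fold change was then 1.58 or 1.41. Plain library size shifted the median of all genes from -0.02 to -0.17, and to -0.29 without the library labelled KO 2, where it turned the split of all calls from 46.4% to 29.6% higher. The members' median stayed positive in all of these (0.96 with plain library size).

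The median log2 fold change of the sodium pores, 0.96, ranged from 0.72 to 1.8 with 1 library left out. Without the library labelled KO 2 it was 1.55 with limma-voom, and with WT 1 also dropped it was 2.16, with 1.70 for α2δ and 2.05 for calcium β subunits. Relative to the neuron markers, leaving out Camk2a turned the calcium β difference to 0.0040. Among single genes, Cacna1s changed sign to 0.016 with RLE and 0.016 with DESeq2 and ranged from -1.36 to 0.36 as libraries were left out, alone or with the library labelled KO 2. In the same way Scn4b ranged from -0.034 to 2.07 and Rem1 from -2.14 to 0.065. Rcor3 turned to -0.0028, -0.13 and -0.052 with plain library size over 6, 5 and 4 libraries. The cause was not tested.

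The replicate numbers were checked as pairs through the correlation of deviations from the group means, which was 0.55, 0.59 and -0.21 for numbers 1, 2 and 3, and WT 3 correlated best with number 2. With 3 libraries per group this check cannot tell whether the numbers mark pairs, and the sample titles give only the number. With the replicate number as a block, 0 members were called, and the smallest adjusted p among them was 0.065. Depth limits Scn11a, Cacng1 and Cacng6, which had under 1 CPM in each library.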
